A study of Homo sapiens with 6 samples.

Results

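The 10 genes RGS2, RGS3, RGS4, RGS5, RGS7, RGS8, RGS10, RGS16, RGS17 and RGS19, which encode regulators of G-protein signalling, were followed in neuroblastoma cells with and without induced MYCN. They are 10 of the 22 RGS genes and of the 60651 genes in the count files. The 10 genes were selected on a list of symbols drawn up with measured values of this comparison known, RGS8 being chosen by its fall. Their levels and differences are therefore given as a description, without a p-value. RNA came from SK-N-AS, a neuroblastoma cell line without MYCN amplification, carrying a stably transfected MYCN construct under the tetracycline repressor (TR) system. Both groups carried the construct and the repressor and were kept as single clones under G418 and blasticidin. The 3 libraries labelled Tet received tetracycline for 120 h (5 days) and are called MYCN-induced. The 3 libraries labelled ETOH, read here as ethanol, carry the same 120 h in their titles and are called control. Whether the MYCN-induced cells also received ethanol is not given in the sources used here. Only the MYCN-induced cells received tetracycline, so an effect of the drug and an effect of MYCN cannot be told apart. The study describes the 3 libraries of each group as independent experiments, and how many clones they came from is not given in the sources used here.

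RGS proteins are GTPase-activating proteins. A receptor activates the G alpha subunit by exchanging its GDP for GTP, and the RGS domain speeds the hydrolysis of that GTP, so that G alpha returns to its inactive form and rejoins G beta-gamma. The R4 subfamily (here RGS2, RGS3, RGS4, RGS5, RGS8 and RGS16) consists mostly of small proteins with little beside the RGS domain. R7 proteins such as RGS7 work in a complex with the G beta subunit GNB5. RGS10 belongs to the R12 subfamily, and RGS17 and RGS19 to the RZ subfamily, which acts on G alpha subunits of the Gi class. RGS4 is abundant in brain, RGS5 is widely used as a marker of pericytes, and RGS8 is best known from the cerebellum.

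The libraries held between 64500589 and 102249336 counted read pairs. MYCN itself (ENSG00000134323.12) stood at 30.3, 35.5 and 32.4 counts per 1000000 counted pairs (CPM, normalised by the trimmed mean of M-values) in the 3 control libraries and at 210.7, 221 and 198.6 CPM in the 3 MYCN-induced ones, a log2 fold change of 2.68 ± 0.08 (SE, n = 3 per group, edgeR quasi-likelihood test, Benjamini-Hochberg adjusted p = 4.15e-05). MYCN-induced replicate 3 stood apart from the other 2 induced libraries on the first principal component, at 69.1 against 14.4 and 13.1, so values without it are given where they matter. The adrenergic neuroblastoma markers differed widely in level. HAND2 (442 CPM in control against 471 CPM in induced cells) and GATA3 (121 and 131 CPM) were abundant in both groups. ISL1 (23.5 and 16.0 CPM), DBH (8.24 and 4.55 CPM) and TH (1.08 and 0.716 CPM) were less abundant and had lower means after induction. Of 9 tested markers of this list 4 had a log2 fold change above 0, and 1 (CHGA) was called lower, against 2.38% of all tested genes. Of 9 tested mesenchymal neuroblastoma markers 1 (FN1) was called lower, but 7 had a log2 fold change above 0, at a median of 0.28. CPM ranges of that list did not overlap for 4 markers higher and 1 lower after induction, against 11.5% and 14.7% of all tested genes. The CHGA call was lost without control replicate 1 or 3 or MYCN-induced replicate 1 or 2 (edgeR adjusted p from 0.129 to 0.158), and the FN1 call without any one control replicate or MYCN-induced replicate 1 or 2 (edgeR adjusted p from 0.0593 to 0.168). The summed level of the mesenchymal list was 584.9 to 595.1 CPM in control and 658.5 to 706.1 CPM in induced libraries. Its part in the RGS values was not tested. Of 8 haematopoietic markers 3 were tested and 0 called, and CD3D, CD3E and MS4A1 had no counts in any library. The 3 tested were CD68 at 4.79, PTPRC at 1.90 and CD14 at 0.121 CPM in control cells. As RNA was measured in bulk, fewer cells with a transcript and less of it per cell cannot be told apart.

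RGS8 and RGS16 lie on the same strand of chromosome 1 with 37426 bases between them, and RGS8 had the largest fall among the 10 genes. The bases upstream of their starts are shown because the induced protein, MYCN, is a transcription factor whose preferred site is the E-box CACGTG. The sequences are from RefSeq on GRCh38.p14 and run 5′ to 3′ on the minus strand, the RGS8 stretch at chr1:182684588-182684837 and the RGS16 stretch at chr1:182604390-182604639. Capitals mark any match, on either strand, to CACGTG or to the variant sites CACGCG and CATGTG searched with it.
RGS8: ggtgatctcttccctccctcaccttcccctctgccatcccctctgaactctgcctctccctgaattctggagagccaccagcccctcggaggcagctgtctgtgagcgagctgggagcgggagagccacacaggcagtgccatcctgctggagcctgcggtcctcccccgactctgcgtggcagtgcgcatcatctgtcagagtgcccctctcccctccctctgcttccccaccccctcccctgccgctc
RGS16: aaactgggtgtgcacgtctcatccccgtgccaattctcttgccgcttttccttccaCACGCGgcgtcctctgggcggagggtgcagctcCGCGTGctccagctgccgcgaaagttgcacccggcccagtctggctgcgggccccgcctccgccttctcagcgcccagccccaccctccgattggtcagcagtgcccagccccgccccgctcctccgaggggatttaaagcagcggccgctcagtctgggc
The RGS8 stretch held none of these motifs, and none was found in any of its 3 RefSeq promoter windows of 300 bases (250 before the start and 50 after it). The RGS16 stretch held CACGCG and, from the opposite strand, CGCGTG.

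Of the 10 genes, 3 had CACGTG in at least 1 promoter window, namely RGS3, RGS7 and RGS19. Over all 27305 genes with a window the share was 8.77%, and over all 35116 windows 7.26%, against 4 of the 25 windows of the 10 genes. The 3 sites are shown with 12 bases on each side, capitals marking CACGTG. They lie at chr9:113536440-113536469 on the plus strand (RGS3), at chr1:241357243-241357272 on the minus strand (RGS7) and at chr20:64079724-64079753 on the minus strand (RGS19), and the RGS7 site falls in 2 overlapping windows.
RGS3: ctctgggcttccCACGTGctccctcagctg
RGS7: acgcccctgtccCACGTGactgtcccctcc
RGS19: cgccgccaggtcCACGTGgaccctgggccg
The log2 fold changes of RGS3, RGS7 and RGS19 between the groups, described further on, were 0.06, 0.94 and -0.00. With CACGCG and CATGTG added, 8 of the 25 windows had a match, against 27.2% of all windows. By gene these were 6 of 10, against 31.3% of all genes, which have fewer windows each (35116 for 27305 genes). A match is a description of the letters and does not show that MYCN was bound there.

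RGS8 (ENSG00000135824.12, chr1:182641816-182684576, minus strand, GRCh38) was counted 188, 141 and 194 times in the control libraries and 20, 21 and 32 times after MYCN induction. The exact 95% Poisson intervals reached from 118.7 to 223 over the controls and from 12.2 to 45.2 over the induced libraries, for counting error only. On the CPM scale the control libraries held 1.80, 1.59 and 1.91 and the induced libraries 0.308, 0.225 and 0.377. Every induced library was below every control library, and the highest induced value was far from the lowest control value. The means were 1.77 ± 0.163 and 0.304 ± 0.0761 CPM (SD, n = 3 each). The fitted log2 fold change was -2.54 ± 0.21 (SE), and the ratio of the control mean to the induced mean in CPM was 5.82. Over the 11 alternatives that could be fitted the log2 fold change lay between -2.74 and -2.35. Without MYCN-induced replicate 3 its log2 fold change was -2.74, so the fall was no smaller without the library that stood apart.

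Over all 29086 tested genes edgeR called 3.4%, of which 1.02% of genes were called higher and 2.38% lower. All 10 RGS genes passed the filter on low counts, with 0 called higher and 1, RGS8, called lower. Because the comparison itself had a part in choosing them, nothing is read from that count. The same holds for calls of single members under the alternatives given below. Without MYCN-induced replicate 3, 1060 of all genes were called higher and 1279 lower. DESeq2 called 904 and 1199, against 298 and 692 in the main fit. Their median log2 fold change was 0.01, with 5 genes above 0 and 5 below, and the median of all tested genes was -0.00. The CPM ranges of the groups did not overlap for 2 genes higher after induction (RGS2 and RGS7), where 11.5% of all genes were so placed. They did not overlap for 2 genes lower after induction (RGS4 and RGS8), where 14.7% of all genes were so placed.

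**Figure D1:**
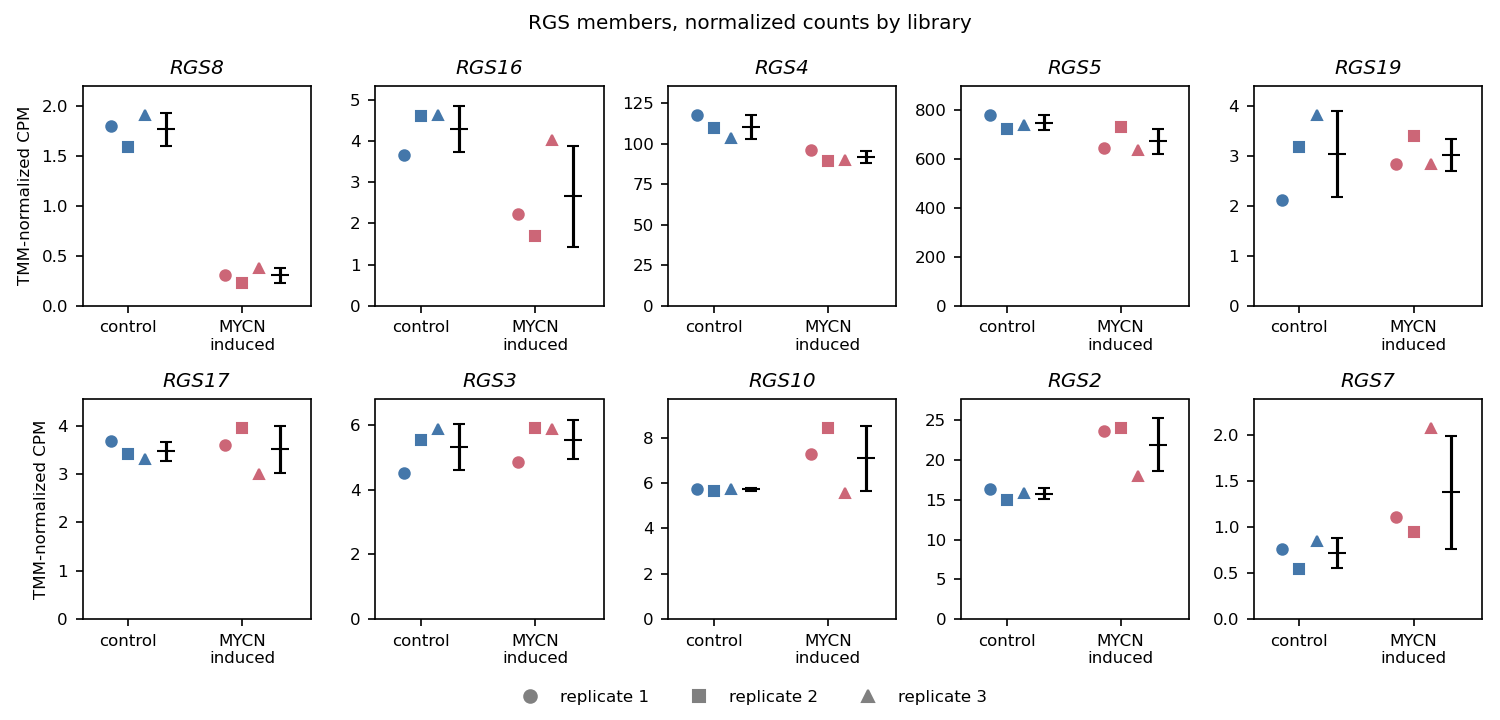
TMM-normalised CPM (vertical axes, each from 0) of the 10 RGS genes in the 3 control and 3 MYCN-induced libraries, ordered by log2 fold change. Symbols mark the replicate, and the bar beside them gives the mean and SD of 3 libraries. RGS8 sits between 1.59 and 1.91 CPM in control and between 0.225 and 0.377 CPM in MYCN-induced libraries.

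RGS16 (ENSG00000143333.7, chr1:182598623-182604389, minus strand), an R4 protein that acts on Gi and Gq subunits, had the lowest log2 fold change after RGS8. It stood at 3.67, 4.62 and 4.65 CPM in control and at 2.23, 1.70 and 4.05 CPM in induced libraries. The third induced library lay within the control range, and the other 2 lay below it. The log2 fold change was -0.70 ± 0.30 (SE), and -1.14 without MYCN-induced replicate 3, the only one of 12 alternatives under which RGS16 was called.

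RGS4 (ENSG00000117152.14, chr1:163068775-163076802, plus strand) and RGS5 (ENSG00000143248.13, chr1:163111121-163321791, minus strand), R4 proteins that restrain Gi and Gq signalling, lie beside each other with 34318 bases between them. RGS4 stood at 117.9, 109.5 and 103.3 CPM in control and at 96.0, 89.3 and 90.1 CPM in induced libraries. Its groups did not overlap, but the difference was small, with a log2 fold change of -0.26 ± 0.07 (SE), and RGS4 was called under 0 of 12 alternatives. RGS5 stood at 780.8, 723.2 and 739.7 CPM against 644.2, 731.9 and 637.4 CPM. Its groups overlapped through MYCN-induced replicate 2, and the log2 fold change was -0.16 ± 0.08 (SE). RGS5 shares 534 exon bases with ENSG00000232995 on the same strand, and pairs falling there were divided between both genes.

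RGS2 (ENSG00000116741.8, chr1:192809039-192812275, plus strand), which acts mainly on Gq, lay higher in the induced libraries. It stood at 16.4, 15.04 and 15.8 CPM in control and at 23.7, 24.0 and 18.0 CPM in induced cells. All induced values were above all control values, with MYCN-induced replicate 3 nearest to the controls. The log2 fold change was 0.48 ± 0.12 (SE), which edgeR did not call. It was called under 2 of 12 alternatives, at 0.61 without MYCN-induced replicate 3 and at 0.49 with DESeq2. Both of these also called more of all genes than the main fit did.

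RGS3 (ENSG00000138835.22, chr9:113444731-113597743, plus strand), the R4 gene with the longest exon model here (13793 bases), stood at 4.53, 5.54 and 5.88 CPM in control and at 4.85, 5.90 and 5.87 CPM in induced libraries. The groups overlapped almost wholly, with a log2 fold change of 0.06 ± 0.14 (SE). Among the 6 R4 genes the values thus ran from -2.54 (RGS8) to 0.48 (RGS2).

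RGS7 (ENSG00000182901.17, chr1:240775514-241357230, minus strand), the R7 protein, had the highest log2 fold change of the 10 genes and one of the lowest levels. It was counted 79.5, 47.5 and 86 times in control and 71.5, 87.5 and 175.5 times in MYCN-induced libraries. On the CPM scale these were 0.764, 0.541 and 0.848 against 1.11, 0.944 and 2.08. The groups did not overlap, but MYCN-induced replicate 3 held about as much as the other induced libraries together. The log2 fold change was 0.94 ± 0.32 (SE) with all libraries and 0.51 without that library, and RGS7 was called under 0 of 11 alternatives. RGS7 shares 409 exon bases with ENSG00000226919 on the opposite strand, and the header of the count files sets no strand option, so reads from the 2 genes cannot be told apart there.

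RGS10 (ENSG00000148908.15, chr10:119499817-119542719, minus strand), an R12 protein and little more than an RGS domain, stood at 5.74, 5.65 and 5.76 CPM in control and at 7.30, 8.42 and 5.57 CPM in induced libraries. The controls were nearly equal, and MYCN-induced replicate 3 fell below them while the other induced libraries lay above. The log2 fold change was 0.31 ± 0.15 (SE), and 0.47 without MYCN-induced replicate 3, the only one of 12 alternatives under which RGS10 was called.

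The RZ genes had log2 fold changes close to 0. RGS17 (ENSG00000091844.8, chr6:153004459-153131282, minus strand) stood at 3.69, 3.41 and 3.31 CPM in control and at 3.59, 3.95 and 2.996 CPM in induced cells, with a log2 fold change of 0.02 ± 0.13 (SE). RGS19 (ENSG00000171700.14, chr20:64073181-64079988, minus strand) stood at 2.12, 3.17 and 3.83 CPM against 2.84, 3.39 and 2.84 CPM, with a log2 fold change of -0.00 ± 0.21 (SE). For both genes the ranges of the groups overlapped, and the sign of the difference turned with the normalisation or the library left out, as given with the processing alternatives.

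**Figure D2:**
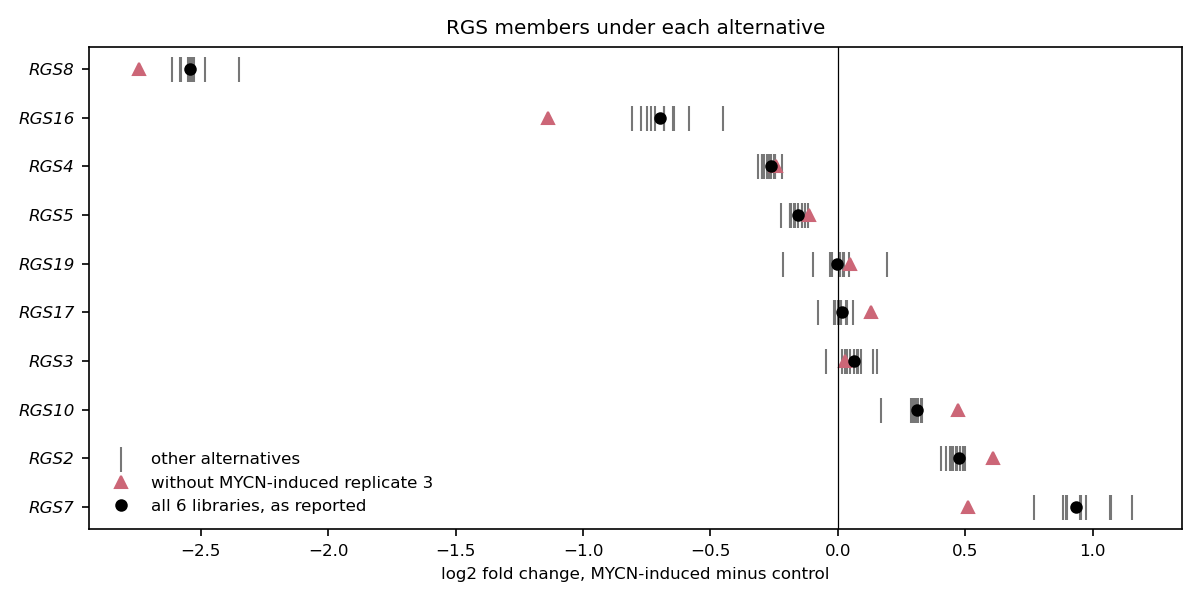
Log2 fold change, MYCN-induced minus control (horizontal axis), of the 10 RGS genes with all 6 libraries (black), without MYCN-induced replicate 3 (triangles) and under the other alternatives (ticks). RGS8 stays between -2.74 and -2.35, and RGS16 and RGS7 move most when that replicate is left out.

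Levels of different genes were compared per exon length, as length-scaled counts summing to 1000000 (TPM) computed from the counts. In control cells RGS5 stood at 185.6 ± 16.0 TPM (SD, n = 3), above 99.5% of detected genes, followed by RGS4 at 38.4 ± 4.51, RGS2 at 12.4 ± 1.02 and RGS10 at 7.37 ± 0.380 TPM. The library values of these 4 genes did not overlap with those of the next gene in the order. RGS16 (2.93 ± 0.261 TPM) and RGS19 (2.44 ± 0.578 TPM) came next and overlapped, then RGS17 (0.720 ± 0.0776 TPM) and RGS3 (0.630 ± 0.0539 TPM), which overlapped too. RGS7 (0.455 ± 0.100 TPM) and RGS8 (0.434 ± 0.0404 TPM) were lowest and could not be ordered. RGS8 was thus a low gene already in control cells, at rank 14 among the 22 RGS genes.

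In MYCN-induced cells the first 4 places were the same, RGS5 at 167.6 ± 33.2, RGS4 at 31.9 ± 4.26, RGS2 at 17.5 ± 4.62 and RGS10 at 9.32 ± 2.97 TPM. RGS19 (2.47 ± 0.550 TPM) then stood before RGS16 (1.75 ± 0.570 TPM), with overlapping values. RGS7 (0.843 ± 0.259 TPM) came next, below all values of RGS16. It overlapped with RGS17 (0.737 ± 0.189 TPM), and RGS17 with RGS3 (0.660 ± 0.108 TPM). RGS8 was at 0.0732 ± 0.00994 TPM, below all values of the other 9 genes and at rank 17 among the 22 RGS genes. The pericyte and smooth muscle markers, measured because RGS5 is used to find pericytes, were not all absent. Their summed level was 229.3 to 294 CPM in control and 190.9 to 248.9 CPM in MYCN-induced libraries. 8 of 9 passed the count filter, and 0 were called. In control cells they ran from MYH11 at 0.153 and DES at 0.935 CPM up to PDGFRB at 53.3 and NOTCH3 at 106 CPM. Their median log2 fold change was -0.26, with 1 of the 8 above 0. CPM ranges did not overlap for 3 markers lower after induction, against 14.7% of all tested genes. Their part in the level of RGS5 was not tested.

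The scale changed which groups overlapped. On the TPM scale RGS2 and RGS4 overlapped between control and MYCN-induced cells and RGS16 did not (2.64, 3.13 and 3.02 against 1.56, 1.29 and 2.39 TPM), while RGS7 and RGS8 stayed apart on both scales. The TPM obtained for 1 CPM varied between 0.865 and 1.12 of the control mean over the libraries, lowest in MYCN-induced replicate 3, and genes under 300 bases held 26.5% to 31.2% of all TPM.

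**Figure D3:**
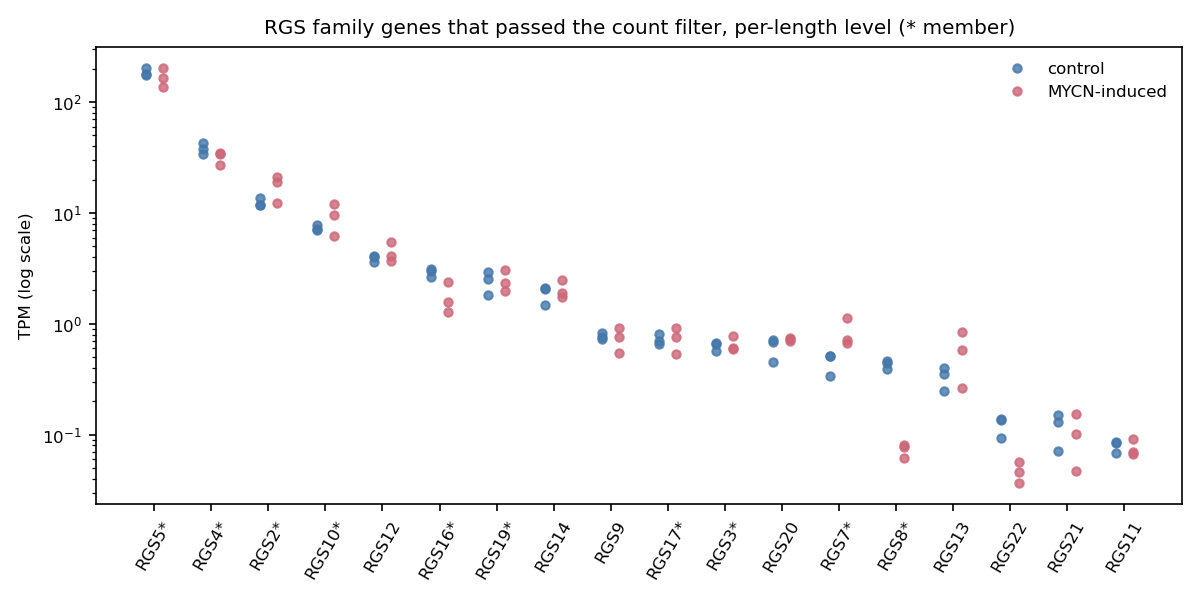
TPM (vertical axis, log scale) of the 18 RGS genes that passed the count filter, in each control and MYCN-induced library, ordered by the control mean and with the 10 described genes starred. RGS5 is at the top in both groups, and RGS8 is set apart between the groups at the low end.

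Of the other 12 RGS genes, 8 passed the count filter. Among these, 0 were called higher and 1, RGS22, was called lower, against 1.02% and 2.38% of all tested genes. RGS22, a large protein with several RGS domains known mainly from testis, was counted 53, 32 and 56 times in control and 14, 15 and 14 times in MYCN-induced libraries. The CPM were 0.506, 0.361 and 0.552 against 0.216, 0.161 and 0.165, without overlap. The log2 fold change was -1.41 ± 0.26 (SE, edgeR adjusted p = 0.0338). The call was lost without control replicate 1, 2 or 3 or MYCN-induced replicate 1 or 2, with edgeR adjusted p from 0.0801 to 0.139.

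RGS12, the most abundant of these other genes by CPM, stood at 32.6 ± 3.66 and 36.9 ± 3.94 CPM (SD, n = 3) with a log2 fold change of 0.18 (edgeR adjusted p = 0.461). RGS13, in the RGS cluster beside RGS2, had a log2 fold change of 0.70 ± 0.32 (edgeR adjusted p = 0.297), and of 1.003, past the threshold, without MYCN-induced replicate 3. RGS9 (-0.08), RGS11 (-0.05), RGS14 (0.11), RGS20 (0.25) and RGS21 (-0.30) had edgeR adjusted p-values of 0.568 to 0.949. RGS1, RGS18 and RGSL1 had too few counts to be tested, and RGS6, the R7 relative of RGS7, had 0 counts in every library.

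The genes through which RGS proteins act were described from 7 lists of 106 genes, of which 86 were tested. Of these, 1 was called higher and 9 were called lower, against 1.02% and 2.38% of all tested genes. The same shares stand beside the counts of each list below. CPM ranges did not overlap for 11 genes higher and 22 lower after induction, against 11.5% and 14.7% of all tested genes. The median log2 fold change of the 86 genes was 0.01, close to the -0.00 of all tested genes. The lists were drawn up with earlier results of these data known, so nothing is read from these counts.

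Receptors that couple to Gi or Gq held 6 of the 10 calls, at a median log2 fold change of -0.06. Of 33 receptor genes 23 were tested, 1 was called higher and 5 lower, against 1.02% and 2.38% of all tested genes. OPRD1, the delta opioid receptor, stood at 97.1, 102.3 and 101.5 CPM in control and at 44.8, 36.7 and 35.9 CPM in induced libraries. The groups were well apart, with a log2 fold change of -1.36 ± 0.10 (SE, edgeR adjusted p = 0.00176). NPY1R, a neuropeptide Y receptor, stood at 12.9, 11.8 and 11.1 CPM against 4.98, 4.57 and 3.41 CPM, with a log2 fold change of -1.47 ± 0.15 (SE, edgeR adjusted p = 0.00514). OPRD1 and NPY1R were the only ones of the 10 called genes that were called under all 12 alternatives tried.

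CHRM1, the M1 muscarinic receptor, stood at 1.72, 2.63 and 3.29 CPM in control and at 0.770, 0.837 and 0.814 CPM in induced libraries, with a log2 fold change of -1.65 ± 0.24 (SE, edgeR adjusted p = 0.0155). SSTR2, a somatostatin receptor, had a log2 fold change of -0.74 ± 0.14 (edgeR adjusted p = 0.0325). S1PR3, a receptor for sphingosine 1-phosphate, had a log2 fold change of -0.70 ± 0.12 (edgeR adjusted p = 0.029). F2R, the thrombin receptor PAR1, was the 1 gene called higher, from 40.6 ± 0.736 to 57.8 ± 3.46 CPM (SD, n = 3), a log2 fold change of 0.51 ± 0.07 (SE, edgeR adjusted p = 0.0122). Without 1 library the 4 calls were lost in 4 or 5 of 6 cases each. For CHRM1 these were control replicate 2 or 3 and MYCN-induced replicate 1 or 2, with edgeR adjusted p from 0.0527 to 0.0871. For SSTR2 and S1PR3 they were any control replicate and MYCN-induced replicate 1 or 2, with edgeR adjusted p from 0.0588 to 0.168 and from 0.0579 to 0.155. For F2R they were any control replicate and MYCN-induced replicate 1, with edgeR adjusted p from 0.0539 to 0.102.

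Among the G alpha subunits, 12 of 13 were tested, 0 were called higher and 1 was called lower, at a median log2 fold change of 0.14. The gene called was GNAO1, the Go alpha subunit of neurons and a substrate of R4 and R7 proteins. It stood at 14.96, 16.8 and 17.9 CPM in control and at 6.38, 5.60 and 9.32 CPM in induced libraries. These did not overlap, and the log2 fold change was -1.22 ± 0.19 (SE, edgeR adjusted p = 0.0183). The call was lost without any one control replicate or MYCN-induced replicate 1, with edgeR adjusted p from 0.0574 to 0.103. GNAI1 (-0.05), GNAI2 (0.03), GNAI3 (-0.08), GNAZ (0.16) and GNAQ (0.12) had edgeR adjusted p-values of 0.482 to 0.945.

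Of the G beta and gamma subunits, 14 of 16 were tested, 0 were called higher and 1 was called lower, at a median log2 fold change of 0.03. This was GNG2, at 59.0 ± 0.954 CPM in control against 33.7 ± 7.90 CPM in induced cells (SD, n = 3), with a log2 fold change of -0.81 ± 0.16 (SE, edgeR adjusted p = 0.0379). Its call was lost without any one control replicate or MYCN-induced replicate 1, with edgeR adjusted p from 0.119 to 0.165. Of the 5 RGS partners, 3 were tested and 0 were called in either direction. GNB5, the obligate partner of RGS7, had a log2 fold change of -0.11 (edgeR adjusted p = 0.576), and GPR158, a membrane protein that binds RGS7, had one of -0.04 (edgeR adjusted p = 0.896).

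Of the effectors, which are adenylyl cyclases, phospholipases C beta and G-protein-gated potassium channels, 12 of 17 were tested, 0 were called higher and 1 was called lower, at a median log2 fold change of -0.16. This was KCNJ6, a potassium channel opened by G beta-gamma, which was low in both groups. It stood at 0.325, 0.316 and 0.325 CPM in control and at 0.139, 0.118 and 0.0944 CPM in induced libraries, with a log2 fold change of -1.47 ± 0.25 (SE, edgeR adjusted p = 0.0263). Its call was lost without any one control replicate or MYCN-induced replicate 1 or 2, with edgeR adjusted p from 0.0657 to 0.124.

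Of the proteins with an RGS homology domain outside the RGS family, 14 of 14 were tested, 0 were called higher and 1 was called lower, at a median log2 fold change of 0.07. GRK5, a kinase that phosphorylates active receptors, stood at 27.9, 27.2 and 27.6 CPM in control and at 16.8, 17.6 and 14.6 CPM in induced libraries. The groups were well apart, with a log2 fold change of -0.76 ± 0.09 (SE, edgeR adjusted p = 0.00762), and the call was lost without control replicate 2 (edgeR adjusted p = 0.0636). The 8 other regulators of G alpha, which include the arrestins ARRB1 and ARRB2 and the chaperones RIC8A and RIC8B, were all tested, and 0 were called in either direction.

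**Figure D4:**
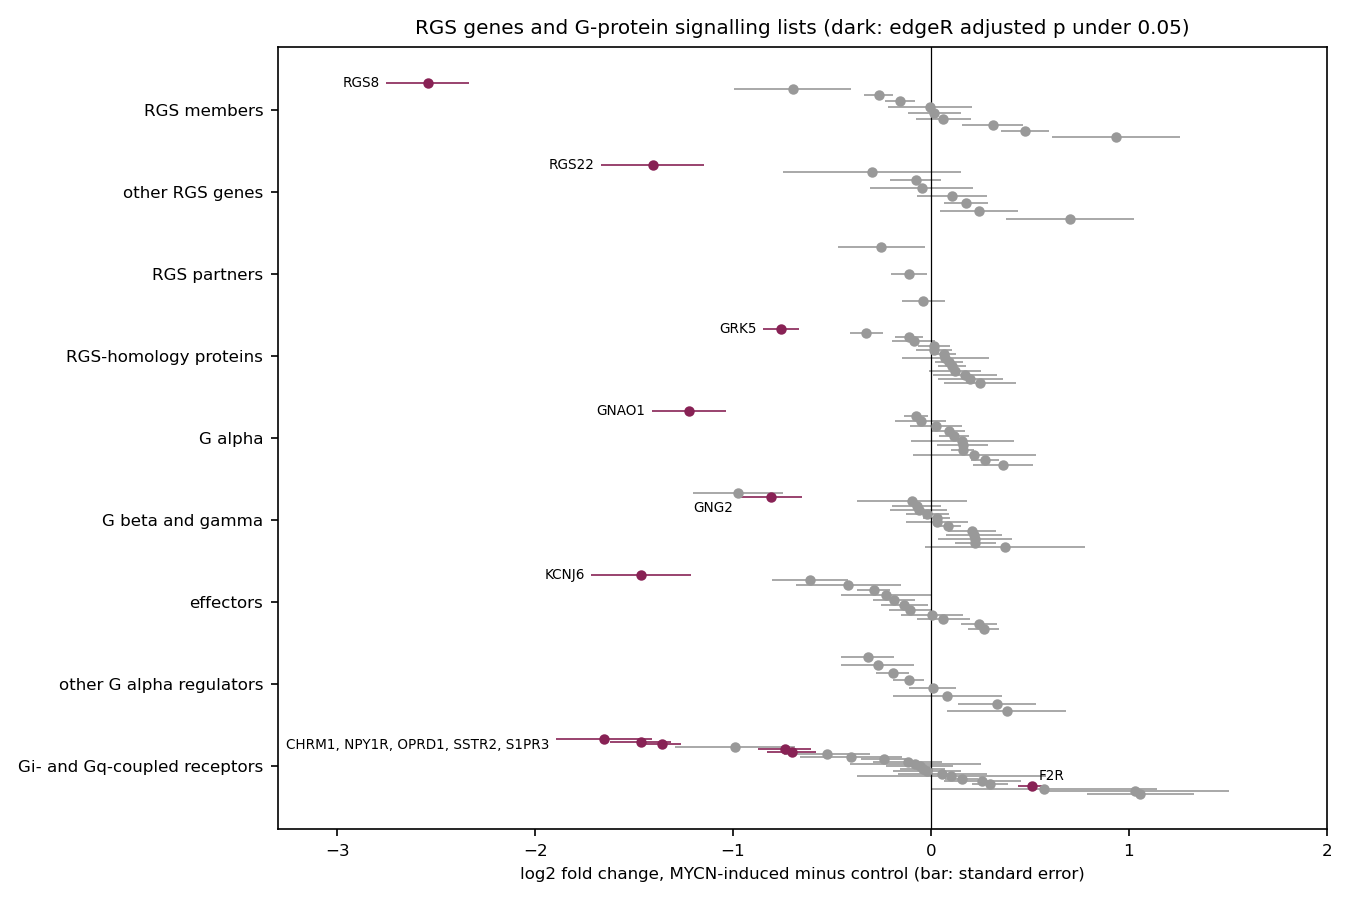
Log2 fold change, MYCN-induced minus control (horizontal axis), of every tested gene in the RGS family and in the 7 lists of G-protein signalling genes (rows), with SE bars. Dark points passed an edgeR adjusted p under 0.05. Most points lie near 0, RGS8 is farthest to the left at -2.54, and F2R is the 1 dark point to the right of 0.

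Chromosome 1 held 6 of the 10 described RGS genes and 5 of the other 12. Of the 28 other genes that start within 500 kb of RGS8 or RGS16, 8 were tested and 1 was called, against 3.4% of all tested genes. The gene called was LAMC1, the laminin gamma 1 chain, which starts 338.8 kb from RGS8. It stood at 709.2, 688.8 and 639.6 CPM in control and at 504.3, 484.5 and 422.1 CPM in induced libraries, with a log2 fold change of -0.53 ± 0.09 (SE, edgeR adjusted p = 0.0207). The call was lost without any one control replicate or MYCN-induced replicate 1 or 2, with edgeR adjusted p from 0.0523 to 0.124.

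The nearest tested genes on each side were not called. LINC01686, a non-coding RNA that starts between RGS16 and RGS8, had a log2 fold change of -0.65 ± 0.34 (edgeR adjusted p = 0.361), and of -1.14, past the threshold, without MYCN-induced replicate 3. DHX9, an RNA helicase on the other side, had a log2 fold change of -0.04 ± 0.08 (edgeR adjusted p = 0.867). GLUL (0.13), TEDDM1 (-0.55), DHX9-AS1 (-0.08) and LAMC1-AS1 (-0.37) had edgeR adjusted p-values of 0.242 to 0.648.

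**Figure D5:**
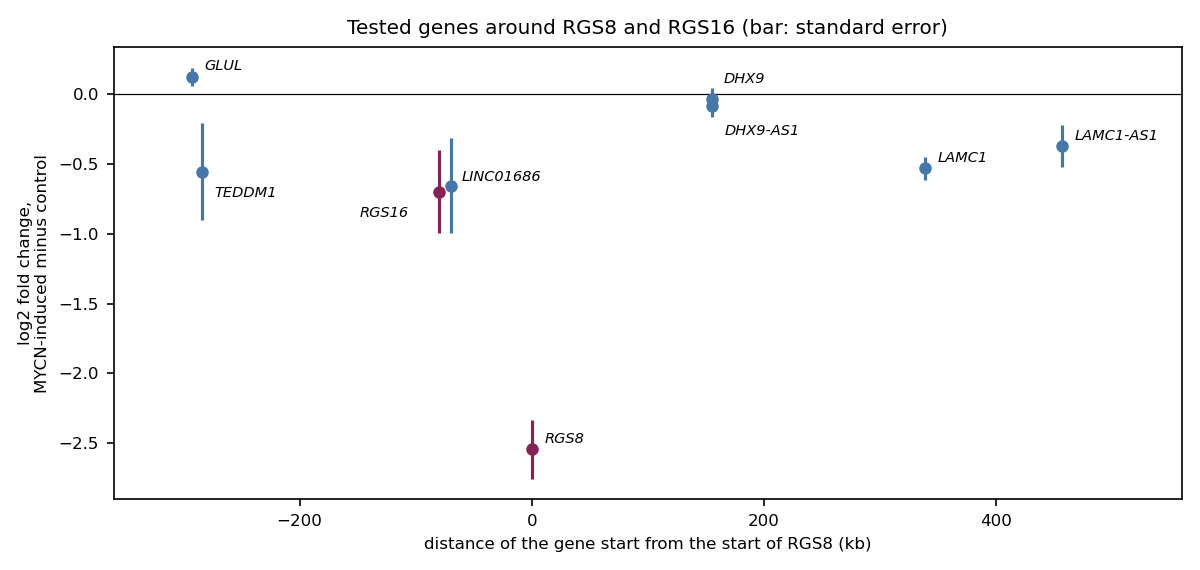
Log2 fold change, MYCN-induced minus control (vertical axis, SE bars), of RGS8, RGS16 and 7 of the 8 tested genes around them by the distance of their start from the start of RGS8 in kb (horizontal axis). RGS8 lies at -2.54, and the genes shown on both sides of it lie between -0.70 (RGS16) and 0.13 (GLUL).

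Genes with a pattern like that of RGS8 were sought by Pearson correlation of log2 CPM over the 6 libraries, among 18534 genes with a mean of at least 1 CPM. The highest were TLL2 (0.999), CCDC3 (0.997), NTPCR (0.997), PCDH17 (0.996) and ITGA8 (0.996), with log2 fold changes of -2.16, -0.90, -0.16, -1.02 and -0.85. The lowest were ATP5PO (-0.998), GTF3A (-0.998), LONRF2 (-0.997), SGK1 (-0.997) and MIPEP (-0.996), with log2 fold changes of 0.19, 0.50, 0.65, 0.58 and 0.50. A gene that differs between the groups gains such a correlation from that difference alone, and 814 genes had a correlation above 0.9 and 823 one below -0.9. With 6 libraries in 2 groups the coefficients describe likeness in these libraries only. TLL2, a metalloproteinase of the tolloid family, had the fall closest in size to that of RGS8 among the 5 most alike genes, from between 9.27 and 10.1 CPM in control to between 1.73 and 2.52 CPM in MYCN-induced libraries.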

How the data were processed

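Ribosomal RNA was removed enzymatically from total RNA of 3 control and 3 MYCN-induced cultures, and stranded libraries were sequenced in pairs. The authors aligned reads with STAR 2.7.1a to GRCh38 and deposited estimated counts per gene from featureCounts. Per the file headers, uniquely aligned pairs were counted over exons with version 1.6.4, pairs on several genes were divided in equal fractions, and no strand option was set. The labels name version 1.5.1, and the methods name a strand option, so the counts were used as deposited. The headers also list 92 spike-in sequences, all at 0, which were left out.

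Gene IDs were paired with symbols through GENCODE 44 (99.72% of 60651 matched). After rounding, the 29086 genes that reached 10 counts in 3 or more libraries were fitted in edgeR 4.0.16 (R 4.3.3) over all 6 libraries, with TMM normalisation, the quasi-likelihood test and Benjamini-Hochberg adjustment over all tested genes. The threshold was an adjusted p under 0.05. SE was taken as the absolute log2 fold change over the root of F. CPM is TMM-normalised, and TPM used the exon lengths in the files. DESeq2 1.42.0 and the other alternatives are named in the closing section. The fit was tested on simulated data. With total counts of 64500589 to 102249336, intervals cover counting error only.

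The members and lists were chosen with earlier results of these data known. The text names all RGS genes, MYCN, each listed pathway gene past the threshold, genes near RGS8 and RGS16 past the threshold or nearest to them, the 5 genes most and the 5 least like RGS8, and marker genes of other cell types. In sentences that give a group of uncalled genes together, those genes were chosen after their values were seen, as relatives or neighbours of the members. A planned protein alignment was not run. Values of 1 marker gene and 1 neighbouring gene are not reported here.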

Additional observations from a re-analysis of the deposited data

How the results depend on the processing

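MYCN kept its call under all 12 alternatives. RGS8, which was chosen by its fall in these libraries, lay between -2.74 and -2.35 on the log2 scale under the 11 that could be fitted. A minimum of 100 counts in every library left RGS8 and RGS7 out, so neither has a value there, and the same holds for RGS22, CHRM1 and KCNJ6. RGS17 (0.02) turned to -0.0096 with library sizes alone and -0.012 with upper-quartile normalisation, and ranged from -0.077 to 0.13 when 1 library was left out. RGS19 (-0.00) turned to 0.0092 with DESeq2, 0.0087 with no count filter and 0.022 with the replicate block, and ranged from -0.21 to 0.19. RGS3 ranged from -0.046 (without control replicate 1) to 0.15. Calls appeared for RGS2 with DESeq2 (0.49), and without MYCN-induced replicate 3 for RGS2 (range 0.41 to 0.61), RGS10 (0.17 to 0.47) and RGS16 (-1.14 to -0.45). Both settings also called more of all genes, as given below. Nothing is read from these calls, and their cause was not tested.

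Of all tested genes, 298 (1.02%) were called higher and 692 (2.38%) lower. DESeq2 called 904 and 1199, no count filter gave 470 higher, at least 100 counts gave 404 lower, and an adjusted p under 0.01 left 36 and 145. Leaving out 1 library gave 18 to 1060 higher, with 1060 and 1279 lower without MYCN-induced replicate 3, and 72 to 1279 lower, with 18 and 72 without control replicate 2. Of the 118 genes of the G-protein lists and the other 12 RGS genes together, 1 was called higher and 10 lower, RGS22 among the latter. DESeq2 called 4 higher, at least 100 counts left 6 lower, an adjusted p under 0.01 left 0 higher and 3 lower, and leaving out 1 library gave 0 to 5 higher and 2 to 13 lower. GNG2 lost its call with at least 100 counts too. No scaling moved the median log2 fold change of all genes by more than 0.033. Adding CACGCG and CATGTG to CACGTG moved the genes with a match from 3 to 6.

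Libraries with the same number deviated together only in part, with correlations of 0.216, -0.0188 and 0.0739, and control replicates 2 and 3 each correlated best with another number, so the numbers were not taken as pairs. The replicate block called 265 genes higher and 575 lower, and 9 of these 118 genes lower. RGS8 had a log2 fold change of -2.55 there, and KCNJ6 lost its call (edgeR adjusted p = 0.0588). Depth limits the low genes, such as RGS8 with 20 to 32 counts and RGS22 with 14 to 15 counts in the induced libraries.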
